A study of Mus musculus with 8 samples.

Results

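The 8 genes described here are the interferon regulatory factors (IRFs) Irf1, Irf2, Irf3, Irf4, Irf5, Irf7, Irf8 and Irf9, taken by their gene names, of 27179 genes measured by RNA-seq in mouse tumors. Each tumor grew under the skin of an adult male CD2F1 mouse from cells of the C26 colon carcinoma line in its cachexia-inducing form (cxC26). The study's methods give wasting of the host as the general point of euthanasia, but do not state the stage for the sequenced tumors. The cxC26 scr tumors (n = 4) came from cells carrying Cas9 with a scrambled guide RNA. The cxC26 IL-6 KO s1 tumors (n = 4, cxC26 IL6KOs1 in the labels) came from 1 subclone in which Il6 had been disrupted with CRISPR/Cas9. The knockout concerned the cancer cells only, so the host kept its own Il6. The IL-6 KO s1 tumors are 1 clone, so the gene and the clone cannot be told apart. In other experiments of the study this clone was inoculated at a higher cell number than cxC26 scr, and the inoculum and the day of collection of the sequenced tumors are not given in the sources used here.

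IRFs are transcription factors with a shared DNA-binding domain that recognises GAAA repeats, as in the interferon-stimulated response element (ISRE). IRF3 and IRF7 are phosphorylated downstream of nucleic acid sensors and switch on type I interferon genes, while IRF9 is the DNA-binding part of ISGF3, the complex that carries the type I interferon signal to the nucleus. IRF1 is an activator induced by interferon-gamma and drives antigen presentation genes, and IRF2 was first described as its antagonist at the same sites. IRF5 acts downstream of Toll-like receptors in myeloid cells, IRF8 directs macrophage and dendritic cell development, and IRF4 serves activated lymphocytes, plasma cells and some myeloid cells.

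The promoters are shown because the family is itself wired into interferon signalling, and the letters of its response elements can be read next to the expression values. RefSeq windows on build GRCm38.p6, running from 250 bases before to 50 bases after a transcript start, were found for all 8 genes (11 windows). They were searched on both strands for an ISRE core, GAAANNGAAA, and for the core of the gamma-activated site (GAS) of interferon-gamma responsive genes, TTCNNNGAA. Over 32851 such windows of the genome, 3.44% held the ISRE core and 8.30% the GAS core, and counted per gene these shares were 3.99% and 9.55% of 27025 genes. Of the 8 members, 3 held a GAS core (Irf1, Irf2 and Irf8), 1 also held an ISRE core (Irf2), and 5 held neither. The stretches with a match follow, all on the plus strand, with the matched letters in capitals. Irf1 has 1 GAS core starting 90 bases before the transcript start (chr11:53769899-53769957), Irf2 has an ISRE core at 241 and a GAS core at 224 bases before it (chr8:46739495-46739554), and Irf8 has GAS cores at 171 and 153 bases before it (chr8:120736162-120736238). No matches overlapped.
Irf1: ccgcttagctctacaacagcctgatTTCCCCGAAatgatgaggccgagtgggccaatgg
Irf2: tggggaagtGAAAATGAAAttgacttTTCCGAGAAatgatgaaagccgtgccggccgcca
Irf8: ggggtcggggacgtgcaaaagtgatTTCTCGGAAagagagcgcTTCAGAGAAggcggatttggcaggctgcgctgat
A match describes letters in a window and not a bound site, and no match says only that these letters were not in this window.

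Expression was given as log2 CPM, the log2 of read counts scaled to library size, from 14158989 to 17048062 reads on genes per tumor. The targeted gene followed its labels, with 326 to 438 Il6 reads in cxC26 scr tumors and 56 to 86 in IL-6 KO s1 tumors. Of the cancer cells' colon markers, Krt20 was abundant in all 8 tumors (17390 to 22185 reads), whereas Epcam, Krt8, Krt19 and Vil1 had at most 15 reads in any tumor. Of the 4 colon and epithelial markers past the filter, 2 rose and 1 fell. RNA of the whole tumor was sequenced, so fewer cells of a type and less RNA per cell cannot be told apart. All 6 pan-leukocyte markers rose in IL-6 KO s1 tumors, among them Ptprc, which encodes CD45 (log2 difference 1.03, limma adjusted p = 0.00954). Their mean log2 CPM was 4.27 to 4.46 in cxC26 scr tumors and 5.03 to 6.04 in IL-6 KO s1 tumors, highest in IL-6 KO s1 tumor 1.

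Among the 7 members that passed the filter on low values (at least 1 CPM in at least 4 tumors), 4 rose in IL-6 KO s1 tumors (Irf5, Irf7, Irf8 and Irf9), 1 fell (Irf3) and 2 did not pass the test (Irf1 and Irf2). Irf4 was below the filter. Across all 13262 genes tested with limma, 19.1% rose and 20.7% fell at an adjusted p under 0.05. The median log2 difference was 0.78 over the 7 tested members and -0.0029 over all tested genes. In Irf5, Irf8 and Irf9 every IL-6 KO s1 tumor lay above every cxC26 scr tumor, which held for 17.8% of all tested genes and also for the untested Irf4. In Irf3 every one lay below, as in 19.3% of tested genes.

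**Figure D1:**
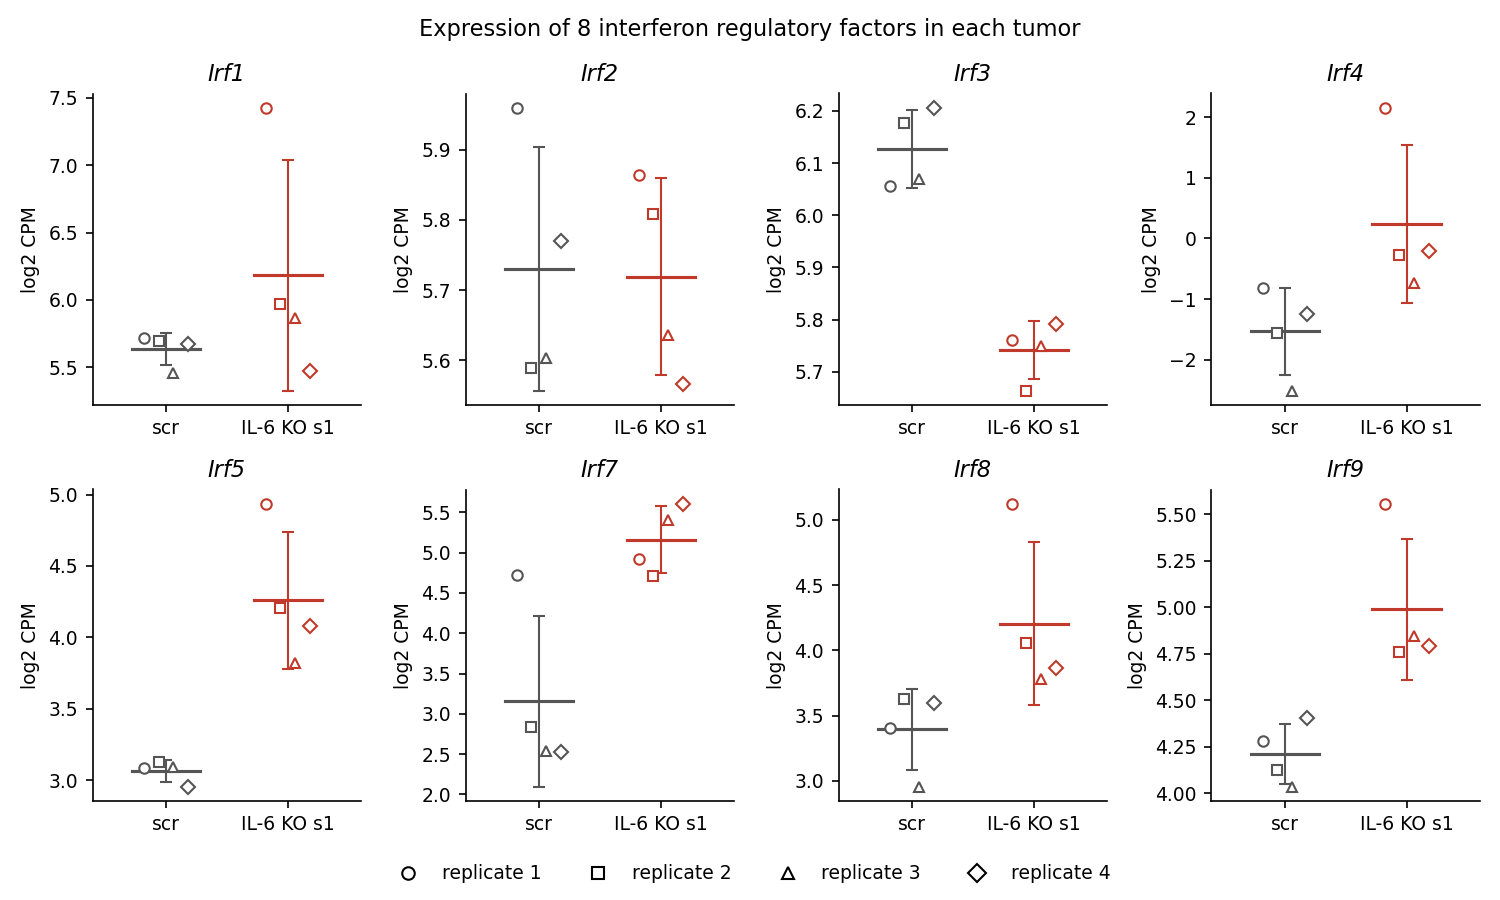
Log2 CPM (vertical axes, each with its own range) of the 8 interferon regulatory factors in the 4 cxC26 scr tumors (grey) and the 4 cxC26 IL-6 KO s1 tumors (red). Symbols mark the replicate number, horizontal lines the mean and whiskers 1 SD. Irf5, Irf8 and Irf9 do not overlap between the groups and are highest in IL-6 KO s1 tumor 1, whereas Irf7 is high in cxC26 scr tumor 1 (4.72) and highest in IL-6 KO s1 tumor 4 (5.61).

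IRF7 and IRF3, both activated by phosphorylation after viral sensing, moved in opposite directions. IRF3 is made by most cells all the time, while Irf7 is itself an interferon-induced gene. Irf7 (chromosome 7, 141263183 to 141266499) measured 4.72, 2.84, 2.54 and 2.52 log2 CPM in cxC26 scr tumors 1 to 4, and 4.92, 4.71, 5.40 and 5.61 in IL-6 KO s1 tumors 1 to 4. Tumor 1 of cxC26 scr stood with the IL-6 KO s1 tumors, just above the lowest of them, and the other cxC26 scr tumors lay far below all of these. In reads, cxC26 scr tumor 1 had 440 against 82 to 115 in the other cxC26 scr tumors and 362 to 706 in IL-6 KO s1 tumors. The difference was 2.01 on the log2 scale (SE 0.418, 95% confidence interval 1.09 to 2.92, adjusted p = 0.00293), a 4.02-fold increase and the largest among the tested members. An exact two-sided permutation test of the same means gave p = 0.0571 over its 70 assignments of the tumors, the smallest possible being 0.0286. Without cxC26 scr tumor 1 the difference was 2.53. Among cxC26 scr tumors, that tumor also had the most reads of the listed keratinocyte markers. It had 59 Krt5 reads (0 to 2 in the others), 28 of Krt14 (0) and 312 of Krt10 (159 to 207). A link to Irf7 was not tested.

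Irf3 (chromosome 7, 44997648 to 45002848) measured 6.06, 6.18, 6.07 and 6.21 log2 CPM in cxC26 scr tumors and 5.76, 5.66, 5.75 and 5.79 in IL-6 KO s1 tumors. The tumors of each group lay close together and the groups did not touch. The fall was small but larger than the spread between tumors (log2 difference -0.39, SE 0.0784, adjusted p = 0.00252, exact permutation p = 0.0286). Chromosome 7, which carries both genes, had a median log2 difference of -0.27 over its 992 tested genes. Measured against the median of its chromosome, Irf3 differed by -0.12 and no longer passed the test (adjusted p = 0.267), and Irf7 differed by 2.27. Within each tumor Irf7 minus Irf3 was -1.33, -3.34, -3.53 and -3.68 log2 units in cxC26 scr tumors and -0.84, -0.95, -0.35 and -0.18 in IL-6 KO s1 tumors. The balance was nearer to equal reads in every IL-6 KO s1 tumor (difference 2.39, exact permutation p = 0.0286), with cxC26 scr tumor 1 again the nearest to them.

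Upstream of IRF3 and IRF7, all 15 listed genes for sensors and adaptors were measured (18 symbols, as some genes were listed under an old and a new name). Of them 6 rose and 1 fell, with a median log2 difference of 0.22. The genes of highest expression in the list were Mavs, the adaptor of RNA sensors (0.21, adjusted p = 0.146), Tbk1, the kinase of IRF3 (0.21, adjusted p = 0.0764), and Sting1, the adaptor of DNA sensing, which fell (-0.37, adjusted p = 0.00795). The 6 that rose, named after their values were seen, were the RNA sensor genes Ifih1 and Dhx58, the endosomal receptor genes Tlr3, Tlr7 and Tlr9, and Myd88, the adaptor of the last 2. Ticam1, the adaptor of TLR3, measured 0.14 (adjusted p = 0.350). Interferon transcripts themselves were scarce, at 68 reads for 9 genes over all 8 tumors, and none passed the filter. Of these, Ifng, chosen after its values were seen, had 0 reads in cxC26 scr tumors and 36 in IL-6 KO s1 tumors (at least 12.4-fold higher, taking 3 reads over the group as the limit of a count of 0). IL-6 KO s1 tumor 1 alone held 33 of the 36. Ifnb1, the target shared by IRF3 and IRF7 and likewise chosen afterwards, had 1 read in cxC26 scr tumors and 4 in IL-6 KO s1 tumors.

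Irf9 (chromosome 14, 55603985 to 55610030), the DNA-binding subunit of ISGF3, measured 4.28, 4.13, 4.04 and 4.40 log2 CPM in cxC26 scr tumors and 5.56, 4.76, 4.85 and 4.79 in IL-6 KO s1 tumors. The groups did not overlap, and IL-6 KO s1 tumor 1 stood clear of the other 3, which were alike. Irf9 rose by 0.78 log2 units (SE 0.172, adjusted p = 0.00424), or by 0.59 without IL-6 KO s1 tumor 1. Stat2, which encodes a partner of IRF9 in ISGF3, rose by 1.12 (adjusted p = 0.00248). The kinases of the pathway did not pass the test (Jak1 0.04, Jak2 -0.13, Tyk2 -0.14). Among the interferon receptor subunits, Ifngr1 (0.75), Ifnar2 (0.52) and Il10rb (0.29) rose, and Ifnar1 (0.05) and Ifngr2 (-0.17) did not pass the test. Ifnlr1, with 2 reads in cxC26 scr tumors and 10 in IL-6 KO s1 tumors, was below the filter.

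All 18 listed target genes of ISGF3 and IRF7, many of which encode antiviral proteins, rose in IL-6 KO s1 tumors, with a median log2 difference of 1.87. This list and the other lists were chosen with earlier results of these data known, so their direction is not independent evidence. The 3 of highest expression were Ifit2, whose protein binds foreign RNA (0.53, adjusted p = 0.0130), Rtp4 (1.40, adjusted p = 0.000215) and Isg15, a ubiquitin-like modifier (1.46, adjusted p = 0.00221). The mean log2 CPM of all 18 listed genes was 3.01, 1.82, 1.23 and 1.48 in cxC26 scr tumors and 3.83, 3.21, 3.85 and 4.21 in IL-6 KO s1 tumors. The list ordered the tumors much as Irf7 did. Within cxC26 scr, tumor 1 was the highest in 18 of 18 genes, and within IL-6 KO s1, tumor 4 was the highest in 14 and tumor 1 in 4. All 18 still rose without cxC26 scr tumor 1 (median 2.29) and without IL-6 KO s1 tumor 1 (median 1.99).

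Irf1 and Irf2, the activator and the antagonist named for the same sites, did not pass the test. Irf1 (chromosome 11, 53770014 to 53778374) measured 5.72, 5.70, 5.46 and 5.68 log2 CPM in cxC26 scr tumors and 7.43, 5.97, 5.87 and 5.47 in IL-6 KO s1 tumors. Tumor 1 of IL-6 KO s1 stood well over all others, 2 more lay slightly above the cxC26 scr tumors, and the last lay among them. The difference of 0.55 had a 95% confidence interval from -0.15 to 1.24 (SE 0.318, adjusted p = 0.193, exact permutation p = 0.200), and without IL-6 KO s1 tumor 1 it was 0.13. Irf2 (chromosome 8, 46739745 to 46847458) measured 5.96, 5.59, 5.60 and 5.77 in cxC26 scr tumors and 5.86, 5.81, 5.64 and 5.57 in IL-6 KO s1 tumors, a difference of -0.01 (95% confidence interval -0.25 to 0.22, adjusted p = 0.945). Irf2 had the smallest difference of the 8, and IL-6 KO s1 tumor 1 was not unusual for it. Irf1 minus Irf2 within a tumor was between -0.24 and 0.11 in cxC26 scr tumors and 1.56, 0.16, 0.23 and -0.09 in IL-6 KO s1 tumors (exact permutation p = 0.0571). None of the 3 genes for IRF2-binding proteins passed the test (Irf2bp1 -0.22, Irf2bp2 0.05, Irf2bpl -0.21).

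Of 18 listed IRF1 target genes, which serve antigen presentation, T cell attraction and restraint of interferon signals, 12 rose and none fell, with a median log2 difference of 1.23. Of the 12, Cxcl11, named after its values were seen, lay below 1 CPM in every cxC26 scr tumor. It passed the filter only through the IL-6 KO s1 tumors, so its rise was largely set by the filter. The 3 of highest expression were B2m, the light chain of MHC class I (0.81, adjusted p = 0.00161), Tapbp, which loads peptide onto it (1.26, adjusted p = 0.000300), and Psmb8, an immunoproteasome subunit (1.33, adjusted p = 0.0104). The mean log2 CPM of all 18 listed genes was 3.17, 3.27, 2.92 and 2.95 in cxC26 scr tumors and 6.09, 3.79, 3.97 and 4.11 in IL-6 KO s1 tumors. IL-6 KO s1 tumor 1 was the highest of all 8 tumors in 18 of 18 of these genes, as it was for Irf1. In the fit without it, 11 of 18 passed the test as higher and the median was 0.86.

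**Figure D2:**
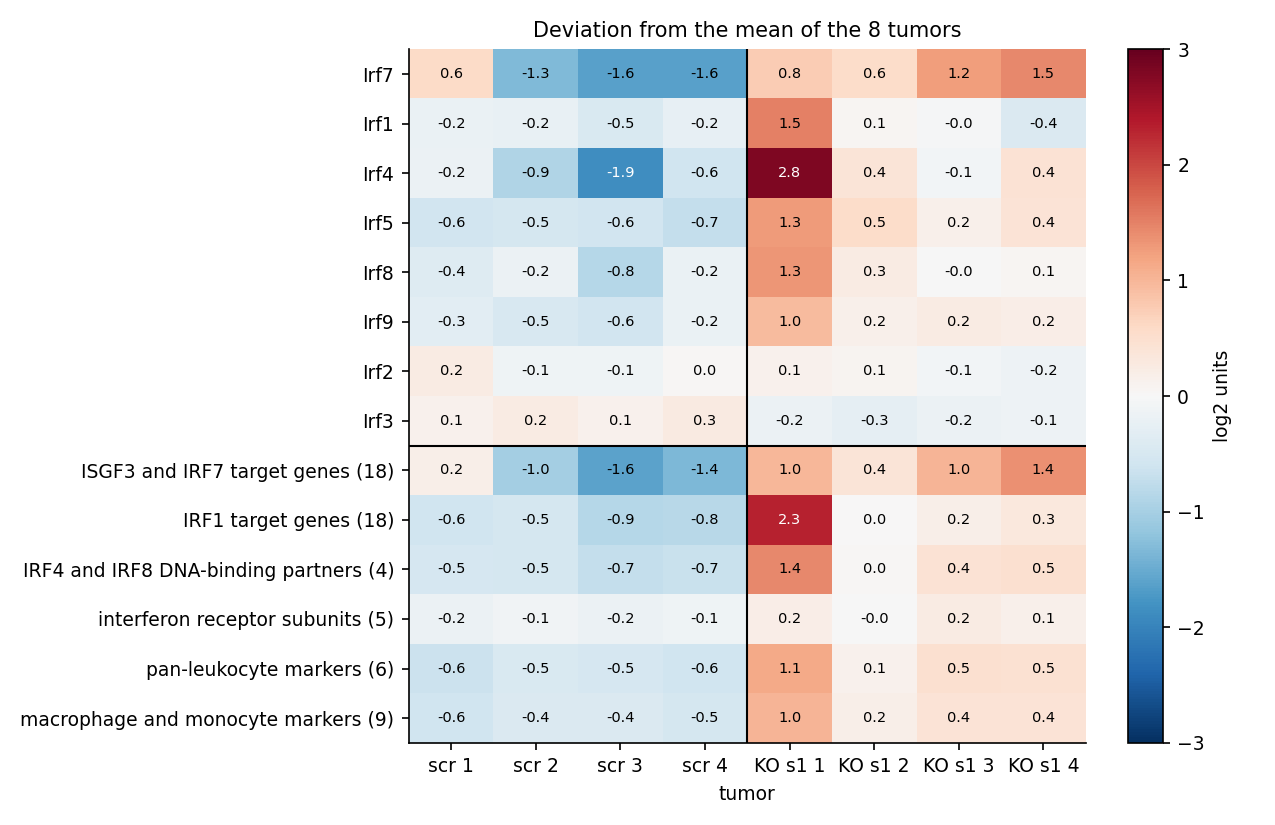
Each cell gives the deviation of 1 tumor from the mean over the 8 tumors, in log2 units, for the 8 interferon regulatory factors (above the line) and for the mean of the tested genes of 6 lists (below it, number of genes in brackets). Irf1, Irf4, Irf5, Irf8 and Irf9 are highest in IL-6 KO s1 tumor 1, as are the IRF1 target genes and the leukocyte markers, while Irf7 and the ISGF3 and IRF7 target genes are highest in IL-6 KO s1 tumor 4 and raised in cxC26 scr tumor 1 over the other cxC26 scr tumors.

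Irf5 (chromosome 6, 29526130 to 29541869), which links Toll-like receptors to inflammatory cytokine genes, measured 3.08, 3.13, 3.09 and 2.96 log2 CPM in cxC26 scr tumors and 4.94, 4.20, 3.82 and 4.08 in IL-6 KO s1 tumors. The cxC26 scr tumors were nearly equal, and all IL-6 KO s1 tumors lay well above them. Irf5 rose by 1.19 log2 units (SE 0.205, 95% confidence interval 0.75 to 1.64, adjusted p = 0.000882), or by 0.97 without IL-6 KO s1 tumor 1. Tnpo3 overlaps Irf5 in the annotation, as 2 predicted genes overlap Irf2 (Gm31172 and Gm39170), and the library kit does not mark strand. Tnpo3 itself did not pass the test (-0.15, adjusted p = 0.175).

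Irf8 and Irf4 encode the IRFs that bind DNA together with partners such as PU.1 or BATF. Irf8 (chromosome 8, 120736358 to 120756694) measured 3.40, 3.63, 2.96 and 3.60 log2 CPM in cxC26 scr tumors and 5.12, 4.06, 3.78 and 3.86 in IL-6 KO s1 tumors. The groups did not overlap, but apart from IL-6 KO s1 tumor 1 the gap to the higher cxC26 scr tumors was narrow. Irf8 rose by 0.81 (SE 0.271, adjusted p = 0.0333, exact permutation p = 0.0286), or by 0.50 without IL-6 KO s1 tumor 1 (adjusted p = 0.0410). The call was lost without cxC26 scr tumor 1 (0.81, adjusted p = 0.0625) and without cxC26 scr tumor 3 (0.66, adjusted p = 0.0988).

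Irf4 (chromosome 13, 30749233 to 30766981) was barely expressed, with 9, 5, 2 and 6 reads in cxC26 scr tumors and 72, 11, 9 and 12 in IL-6 KO s1 tumors. The lowest IL-6 KO s1 tumor matched the highest cxC26 scr tumor in reads and lay just above it once scaled to library size (-0.73 against -0.81 log2 CPM), and IL-6 KO s1 tumor 1 held most of the reads. The mean log2 CPM was -1.53 ± 0.72 (SD, n = 4) in cxC26 scr tumors and 0.24 ± 1.30 (SD, n = 4) in IL-6 KO s1 tumors, a difference of 1.77 (exact permutation p = 0.0286), or of 1.13 without IL-6 KO s1 tumor 1. Irf8 minus Irf4 overlapped between the groups (difference -0.96, exact permutation p = 0.0857). Among the partners of these factors, Spi1, which encodes PU.1 (1.48, adjusted p = 9.17e-05), Ikzf1, which encodes Ikaros (1.25, adjusted p = 0.000476), and Batf2 (1.51, adjusted p = 0.0325) rose. Batf measured 0.58 (adjusted p = 0.243), and Batf3, Spib and Ikzf3 were below the filter.

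Markers of several cell types moved with these values. Of 9 macrophage and monocyte markers, 8 rose and 1 fell (Mertk), and their mean log2 CPM was 5.55 to 5.71 in cxC26 scr tumors and 6.31 to 7.15 in IL-6 KO s1 tumors. All 4 tested T cell markers and all 5 tested cytotoxic lymphocyte markers rose, of 6 and 7 listed. Of these, Cd2, Cd3g, Cd8a, Cd8b1 and Nkg7 lay below 1 CPM in every cxC26 scr tumor. They passed the filter only through the IL-6 KO s1 tumors, so their rise was largely set by the filter. Of 5 markers of plasmacytoid dendritic cells, which are rich in Irf7, 1 passed the filter (Cox6a2, 1.48, adjusted p = 0.0206). Cox6a2 had 31 reads in cxC26 scr and 80 in IL-6 KO s1 tumors. It passed only through the IL-6 KO s1 tumors, so its rise was largely set by the filter. Of the other 4, Siglech (29 reads in cxC26 scr and 65 in IL-6 KO s1 tumors), Klk1 (26 and 62) and Ccr9 (39 and 56) had more reads in IL-6 KO s1 tumors and Smim5 (55 and 30) fewer.

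The 6 markers listed for conventional dendritic cells of type 1, which need Irf8, did not move together. Zbtb46, which other conventional dendritic cells also express, fell (-2.42, adjusted p = 6.95e-06), and Itgae measured 0.36 (adjusted p = 0.331). The 4 below the filter had few reads, more of them in IL-6 KO s1 tumors: Xcr1 had 13 and 42, Flt3 29 and 64, Clec9a 26 and 37, and Tlr11 0 and 7. All 3 tested mast cell markers rose, with a median of 3.12, and their mean was lowest within IL-6 KO s1 in tumor 1. Of 5 fibroblast markers, 3 fell and 1 rose. Of the 7 listed markers of plasma cells, in which Irf4 acts, Jchain had 33 reads in cxC26 scr and 1367 in IL-6 KO s1 tumors. Of these, 957 were in IL-6 KO s1 tumor 1, the tumor with most Irf4 reads. Jchain passed the filter only through the IL-6 KO s1 tumors. Sdc1 fell (-0.78, adjusted p = 5.60e-05) and Prdm1 measured -0.86 (adjusted p = 0.0640). The markers below the filter had more reads in IL-6 KO s1 tumors: Mzb1 had 9 and 137, Pou2af1 12 and 93, Derl3 19 and 62, and Tnfrsf17 33 and 42. The part of cell numbers in the family's differences was not tested, but each gene could be expressed relative to the pan-leukocyte markers of its own tumor.

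On that relative scale (log2 CPM minus the mean of the 6 pan-leukocyte markers), the median of all tested genes was lowered by the scaling to -1.10, since the same amount was taken from every gene's difference. The limma fit on this scale called 1.89% of genes higher, with 1 member (Irf7), and 83.6% lower, with 3 members (Irf1, Irf2 and Irf3). That fit drew its error from all genes and none from the spread of the gene itself, so nothing is read from its calls, and the members are described by their own spread and the exact permutation test. The relative values of Irf7 were 0.45, -1.62, -1.86 and -1.80 in cxC26 scr tumors and -1.11, -0.32, 0.01 and 0.23 in IL-6 KO s1 tumors. The cxC26 scr tumor 1 was thus the highest of all 8, and IL-6 KO s1 tumor 1, the richest in leukocyte markers, was the lowest of its group. The groups overlapped, and the difference of 0.91 (SE 0.629 from the spread of Irf7 itself) did not pass the exact permutation test (p = 0.229). Without cxC26 scr tumor 1 it was 1.46.

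Relative to the pan-leukocyte markers, Irf5 differed by 0.10 (SE 0.161, exact permutation p = 0.571), Irf8 by -0.29 (SE 0.241, exact permutation p = 0.171), Irf9 by -0.32 (SE 0.134, exact permutation p = 0.0857) and Irf1 by -0.55 (SE 0.292, exact permutation p = 0.143). The groups overlapped for all of these, and a p of this size does not show equality. Irf3 (-1.48, SE 0.200) and Irf2 (-1.11, SE 0.233) lay lower in every IL-6 KO s1 tumor than in any cxC26 scr tumor (exact permutation p = 0.0286 for each), Irf2 by about as much as the median gene. The scaling took the same amount from every gene's difference, and the share of all tested genes without overlap was not counted on this scale. Nothing particular to these members is therefore read from the separation. Unscaled, the Irf2 difference was -0.01.

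**Figure D3:**
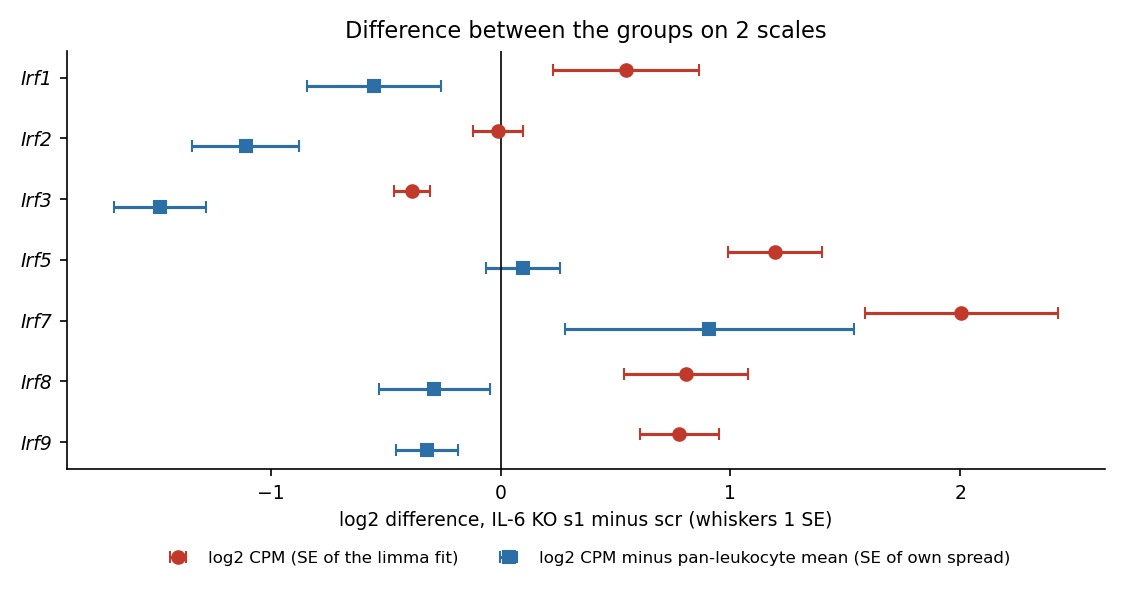
Log2 difference between cxC26 IL-6 KO s1 and cxC26 scr tumors (horizontal axis) for the 7 tested members, as measured (red circles, whiskers 1 SE of the limma fit) and relative to the pan-leukocyte markers (blue squares, whiskers 1 SE from the spread of the gene itself). Irf7 lies above 0 on both scales (2.01 and 0.91), with a wide error on the relative one, Irf3 lies below 0 on both (-0.39 and -1.48), and Irf5 lies near 0 on the relative scale (0.10).

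Levels of different genes were compared as CPM per kilobase of annotated exon. In cxC26 scr tumors the order was Irf3 (mean 20.3 ± 1.06 SD, n = 4), Irf1 (12.5 ± 1.01), Irf2 (7.21 ± 0.890), Irf9 (3.45 ± 0.391), Irf7 (2.98 ± 2.68), Irf5 (2.87 ± 0.147), Irf8 (1.51 ± 0.301) and Irf4 (0.0703 ± 0.0339). The first 3 were clear of each other and of the rest in every tumor, as was Irf4 at the bottom. Irf7 ranged from 1.51 to 6.98 and overlapped Irf9, Irf5, Irf8 and Irf2.

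In IL-6 KO s1 tumors the order was Irf1 (mean 21.2 ± 14.8 SD, n = 4), Irf3 (15.5 ± 0.583), Irf7 (9.75 ± 2.77), Irf2 (7.14 ± 0.693), Irf5 (6.88 ± 2.51), Irf9 (6.06 ± 1.79), Irf8 (2.82 ± 1.42) and Irf4 (0.338 ± 0.378). Irf1 led by its mean alone, since its tumors ranged from 11.2 to 43.3 around those of Irf3. In IL-6 KO s1 tumor 4, Irf7 (12.9) also lay above Irf1 (11.2). Irf7, Irf2, Irf5 and Irf9 overlapped one another, and Irf4 stayed below all others.

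**Figure D4:**
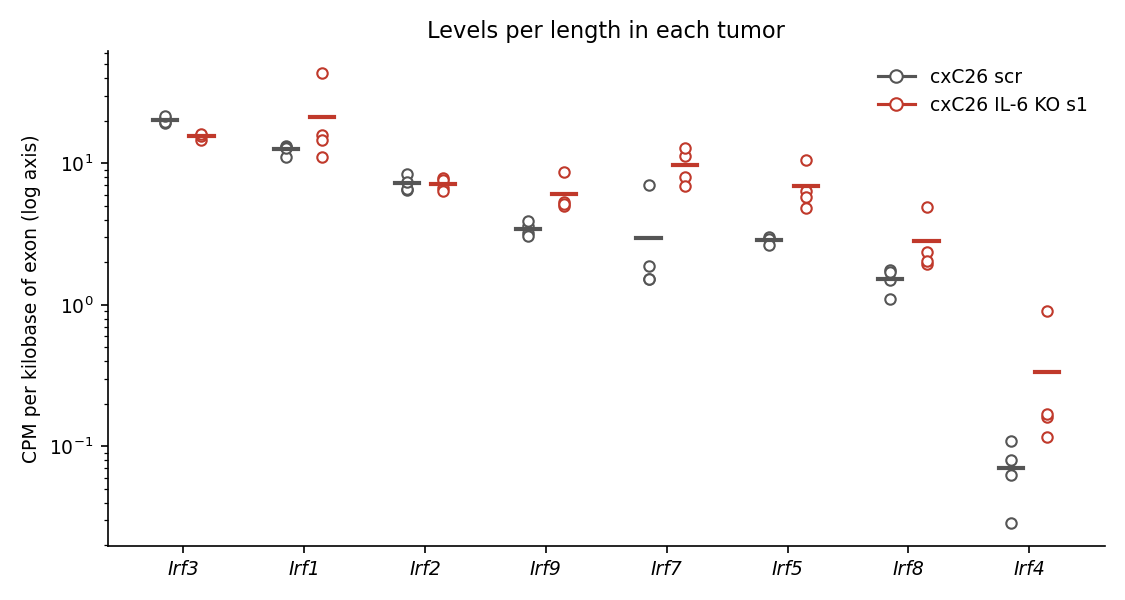
CPM per kilobase of exon (vertical log axis) of the 8 interferon regulatory factors in each cxC26 scr (grey) and cxC26 IL-6 KO s1 (red) tumor, in the order of the cxC26 scr means (bars). Irf3, Irf1 and Irf2 lead in cxC26 scr tumors, and in IL-6 KO s1 tumors Irf7 reaches 6.92 to 12.9, beside Irf2 and Irf5.

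Among 11919 other genes, those whose deviations over the 8 tumors lay nearest to each tested member were found by the mean absolute difference in log2 units, as a description over tumors that share both groups. Nearest to Irf7 were the interferon-induced genes Rsad2 (0.128) and Ifit1 (0.217), both on the list of ISGF3 and IRF7 target genes. Nearest to Irf1 were Egflam (0.158) and H2-DMa (0.166), a peptide loading factor of MHC class II. Psd4 (0.0576) and Stxbp2 (0.114) were nearest to Irf5, the complement gene C3 (0.0945) and Hal (0.133) to Irf8, and Rasgrp4 (0.0765) and Msn (0.0988) to Irf9. For the members of little spread the distances were small by construction, with G3bp2 (0.0223) and Agfg1 (0.0291) nearest to Irf3, and Bud13 (0.0417) and Scamp2 (0.0486) nearest to Irf2.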

How the data were processed

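Total RNA of 8 frozen tumors was enriched for poly(A) and made into libraries with a kit that does not mark strand. Per the study's methods and the submitters' processing notes, the authors demultiplexed with bcl2fastq 2.17, removed adapters and poor bases from the 150 bp read pairs (Trimmomatic), mapped the pairs to mm10 (HISAT2), assigned reads to genes by featureCounts and used limma-voom for normalisation. What they deposited is 1 log2 CPM value per gene and tumor. Versions of the other tools, the annotation and the strand setting are not given in the sources used here. Read counts were recovered by inverting the voom formula (100% of values whole within 0.01).

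Groups came from the sample titles. The labels do not tie the replicates to animals, so p-values measure the spread between these samples. Genes reaching 1 CPM in 4 or more of the 8 tumors (13262 of 27179) were tested with limma 3.58.1 in R 4.3.3 (lmFit, eBayes with a variance trend) and Benjamini-Hochberg adjustment over all of them, at a threshold of 0.05. The procedure was tested on simulated data with the same replicate dispersion for all genes and no outlying tumor. Outlying tumors such as those flagged below were therefore not covered by that test. Exact two-sided permutation tests were run on single members and on within-tumor differences. Relative values subtracted the mean of 6 pan-leukocyte markers in each tumor. They were fitted alike, but there limma estimated an infinite prior degree of freedom and so used an error pooled over genes, and exact permutation was used in its place. All 8 members were named whatever their values, with Il6, Ptprc, any gene of lists of up to 7 genes and the 3 tested genes of highest mean of longer lists. One gene of these lists is not reported here. The members and lists were chosen with earlier results of these data known. Promoter sequences and gene positions are RefSeq's on GRCm38.p6. Exon lengths are from the GENCODE annotation of the same build. Alternatives were other filters, thresholds, normalisations, weights, a replicate block, chromosome re-centring and leaving out tumors.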

Additional observations from a re-analysis of the deposited data

Results flagged for a closer look

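In 9 of 68 groups of 4 tumors searched (members, list means and member differences), 1 tumor stood farther from the other 3 than a 95% limit for gaps allows. Chance gives about 1 in 20 groups, here 3.4. Among the members these were Irf7 in cxC26 scr tumor 1 (4.72 log2 CPM against 2.52 to 2.84), Irf9 in IL-6 KO s1 tumor 1 (5.56 against 4.76 to 4.85) and Irf1 in cxC26 scr tumor 3 (5.46 against 5.68 to 5.72). Irf7 minus Irf3 in cxC26 scr tumor 1 was -1.33 against -3.68 to -3.34. The mean of the IRF1 target genes was 6.09 in IL-6 KO s1 tumor 1 against 3.79 to 4.11, and that of the IRF2-binding proteins was 6.47 in cxC26 scr tumor 1 against 6.08 to 6.13. Among cell type markers, cytotoxic lymphocyte markers were at -0.97 in cxC26 scr tumor 2 against -3.46 to -3.10, plasma cell markers at 2.45 in cxC26 scr tumor 1 against 3.50 to 3.57, and mast cell markers at 2.06 in IL-6 KO s1 tumor 1 against 4.07 to 4.23. The plasma cell value rested largely on Jchain, with 1 read in cxC26 scr tumor 1 against 8 to 15 in the other cxC26 scr tumors. The tested cytotoxic markers had 0 to 47 reads in cxC26 scr tumors, so that flag rests on low counts.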

How the results depend on the processing

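Irf5 and Irf7 kept their direction and their call under all 19 alternatives of the unscaled comparison, and Irf9 under all but a threshold of a 2-fold change. That threshold also ended the calls on Irf3 (-0.39) and Irf8 (0.81), as it did for Irf9 (0.78), and left 829 genes higher and 521 lower, with 2 members higher and 0 lower. Irf8 was lost with no filter (0.81, adjusted p = 0.107), with no variance trend (0.81, adjusted p = 0.0635), with chromosome re-centring (0.76, adjusted p = 0.0521) and, in an alternative added after seeing the data, without both tumors numbered 1 (0.50, adjusted p = 0.0585). Chromosome re-centring also left 0 members lower, with Irf3 at -0.12. Irf2 changed sign, with no call, under quantile normalization (0.0355), without both tumors numbered 1 (0.0166) and on leaving out single tumors (-0.0598 to 0.065), as did Irf5 on the relative scale (-0.0247 to 0.222). Leaving out single tumors gave 0.50 to 0.95 for Irf8, and on the relative scale -0.77 to -0.34 for Irf1. The limma call on relative Irf1 was lost in 8 of 10 alternatives, macrophage markers among them (-0.45). Irf8 minus Irf4 moved to -0.0259 with 1 CPM added to each value. Divided by the longest transcript in place of all exons, the order of levels exchanged Irf7 with Irf5 in cxC26 scr tumors and with Irf2 in IL-6 KO s1 tumors. The limma calls on the relative scale rest on a pooled error, so nothing is read from keeping or losing them. Tumors with the same number did not deviate together over all tested genes (correlations -0.0593, 0.0570, 0.0170 and -0.0587), so no pairing by number was seen. A weak pairing, or one of few genes, would not show in this check. With the replicate block, Irf1 on the relative scale lost its call (-0.55, adjusted p = 0.0904) and no other member's call changed. The causes were not tested. Depth limits Irf4 and the interferon genes, whose counts are too low for a difference of modest size to be detectable.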
